A study of Mus musculus with 4 samples.

Results

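The receptors for glutamate, GABA and glycine were examined in sympathetic ganglia (SG) of thoracic levels T1–T4. Members were all mouse genes named as AMPA (Gria), kainate (Grik), delta (Grid) or NMDA (Grin) receptor genes, as metabotropic glutamate receptors (Grm), as GABA-A or GABA-rho subunits (Gabr), or as glycine receptor subunits (Glra, Glrb). The rule reads only the gene names. Of 52 such symbols in RefSeq, 43 were listed in at least 1 of the 4 libraries, out of 17667 genes so listed. Of the 43 members, 41 encode receptor subunits. The other 2 are Grid2ip, which encodes the scaffold protein delphilin, and Grin1os, a long non-coding RNA gene that overlaps Grin1.

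All mice were C57BL/6, 12 weeks old, and had spent 1 day at 5 °C before the ganglia were taken. Each library was made from the pooled ganglia of 6 mice. There were 2 WT libraries, 1 library of AdNTF3-Tg mice and 1 library of TRKC+/- mice. AdNTF3-Tg mice express the neurotrophin NT-3 from the adiponectin promoter, which is active in adipocytes. The transgene is thus aimed at the tissue that the nerves reach. TRKC+/- mice lack 1 functional copy of Ntrk3, the gene of the NT-3 receptor TRKC, in every cell of the body. The study describes a WT control for each mutant cohort. The names of the tables mention a cohort, but the sample labels, from which the groups were taken, do not give one, so each mutant library was set against both WT libraries.

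Ionotropic receptors are ligand-gated channels built of several subunits. AMPA, kainate and NMDA receptors are opened by glutamate and pass cations, and GABA-A and glycine receptors pass chloride. Most need particular partners: NMDA receptors need GluN1 together with a GluN2 or GluN3 subunit, GABA-A receptors usually join alpha, beta and gamma subunits, and the glycine receptor beta subunit forms channels only with an alpha subunit. In SG, fast transmission from preganglionic axons uses acetylcholine and nicotinic receptors, and GABA-A receptors have long been known on sympathetic neurons as well.

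Levels are given as FPKM, which divides reads by transcript length and library depth, or as the reads themselves, which need not be whole in these tables but were whole for all 43 members. The 4 libraries held between 8665955 and 8894985 reads on genes. A level of 3 reads, taken as the floor, corresponds to between 0.0905 and 0.0929 FPKM at the median length of a member. A gene without reads is not listed in a library at all, so a missing value cannot be told apart from a gene that was not counted. The defining genes of noradrenergic neurons were high throughout, with Th (tyrosine hydroxylase) between 2576 and 2753 FPKM and Dbh (dopamine beta-hydroxylase) between 2100 and 2170 FPKM. Other tissues were present too: 6 of 6 skeletal muscle genes were listed in every library, and their summed level was 83.5 FPKM in WT 1, 2.68 in WT 2, 30.9 in AdNTF3-Tg and 39.5 in TRKC+/-. All 4 brown adipocyte genes were listed in every library, with sums between 65.1 and 122 FPKM. Of 8 sensory neuron genes, 7 were listed in every library. In bulk tissue, fewer cells of a type and less RNA per cell cannot be told apart. Ntrk3 had 78 reads in WT 1, 83 in WT 2, 76 in AdNTF3-Tg and 91 in the library labelled TRKC+/-, where it was thus not lower. The log2 ratio of the latter to the summed WT libraries was 0.15, with a 95% counting interval of −0.23 to 0.53. Which part of Ntrk3 the TRKC+/- allele lacks is not given in the sources used here, and reads outside that part would not show it. The library keeps its label, and every direction given for TRKC+/- is that of the library labelled so. Ntf3, the NT-3 gene, was listed only in the library labelled TRKC+/-, with 2 reads.

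The promoters of 4 members are shown, chosen for their level or for their difference between the WT libraries. Grin1 and Glrb were the highest members, Glra2 (an alpha partner of Glrb) was among the lowest, and Gabra3 differed most between the WT libraries. Each is the RefSeq window on GRCm38.p6 of 250 bases before to 50 bases after a transcription start, written 5′ to 3′ on the strand of the gene, with each CG dinucleotide in capitals. All 4 genes lie on the minus strand. The windows are chr2:25319138-25319437 for Grin1, chr3:80913611-80913910 for Glrb, chrX:165327344-165327643 for Glra2 and chrX:72656870-72657169 for Gabra3.
Grin1: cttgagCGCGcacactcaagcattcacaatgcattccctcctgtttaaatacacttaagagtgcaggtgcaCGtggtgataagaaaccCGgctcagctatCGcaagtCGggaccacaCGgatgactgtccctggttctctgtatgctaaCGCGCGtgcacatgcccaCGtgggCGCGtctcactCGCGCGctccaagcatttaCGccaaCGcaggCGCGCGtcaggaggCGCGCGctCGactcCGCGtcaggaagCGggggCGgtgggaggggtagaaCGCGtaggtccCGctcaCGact
Glrb: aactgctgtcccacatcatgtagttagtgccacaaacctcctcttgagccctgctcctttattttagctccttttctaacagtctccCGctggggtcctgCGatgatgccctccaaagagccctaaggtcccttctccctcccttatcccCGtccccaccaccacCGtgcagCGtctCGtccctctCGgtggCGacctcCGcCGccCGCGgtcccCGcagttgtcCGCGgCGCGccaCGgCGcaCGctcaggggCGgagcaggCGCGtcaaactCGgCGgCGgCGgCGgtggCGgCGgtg
Glra2: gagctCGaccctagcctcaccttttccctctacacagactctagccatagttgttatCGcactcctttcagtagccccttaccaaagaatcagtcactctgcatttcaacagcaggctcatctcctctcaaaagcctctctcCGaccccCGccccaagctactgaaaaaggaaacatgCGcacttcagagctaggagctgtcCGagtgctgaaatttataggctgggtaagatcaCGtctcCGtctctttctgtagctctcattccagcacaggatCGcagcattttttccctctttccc
Gabra3: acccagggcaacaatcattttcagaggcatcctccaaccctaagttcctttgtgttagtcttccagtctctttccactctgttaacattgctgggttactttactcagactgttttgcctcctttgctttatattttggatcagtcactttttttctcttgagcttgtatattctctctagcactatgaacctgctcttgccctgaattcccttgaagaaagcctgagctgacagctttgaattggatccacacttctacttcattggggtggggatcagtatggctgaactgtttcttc

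These windows held 33 CG in Grin1, 30 in Glrb, 9 in Glra2 and 0 in Gabra3. CG was counted on the strand printed, and since it reads the same on the other strand the count holds for both. A window was found for 36 of the 52 symbols. The 11 whose mean over the 4 libraries was 1 FPKM or more held a median of 26 CG (10 to 50), and the other 25 a median of 11 (0 to 33). Single genes departed from this: Grik5, at a mean of 28.4 FPKM, held 10 CG, and Grm8, at 0.0075 FPKM, held 33. Over all genes of the table, the medians were 22 for the 10127 genes at or above that level and 4 for the other 16898, and 94.6% of all windows held a CG. The lower count of the low receptor genes is thus a feature that they share with other genes low in this tissue. Where a gene had several windows, as Gabra3 did, the window with the most CG was taken.

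Expression was concentrated in a few subunits. Of the 43 members, 28 were listed in all 4 libraries, 17 averaged 1 FPKM or more and 21 averaged 0.5 FPKM or more. The other 15 members were listed in 1 to 3 libraries, with at most 7 reads in any of them. The 9 symbols listed in no library were Gabra4, Gabra6, Gabrb1, Gabrp, Gabrr3, Glra1, Glra3, Grin2b and Grm2. Summed over all subunits, the level was 180 FPKM in WT 1, 186 in WT 2, 195 in AdNTF3-Tg and 183 in TRKC+/-. AMPA subunits (43.5 to 51.3 FPKM), kainate subunits (39.8 to 40.6), NMDA subunits (35.1 to 39.1) and glycine subunits (28.5 to 33.7) made up most of it. Metabotropic receptors summed to between 7.34 and 7.77 FPKM. The ranges of the families given here did not overlap with each other.

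**Figure D1:**
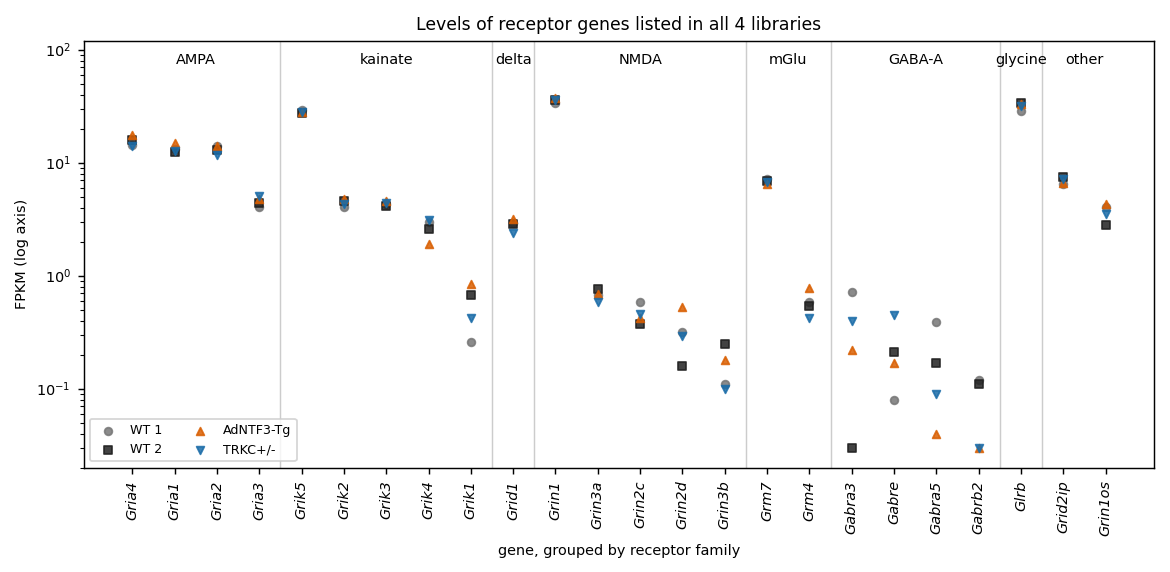
Level in FPKM, on a log axis, of 24 of the receptor genes listed in all 4 libraries, grouped by receptor family and ordered by mean level within each family; each symbol is 1 library, a pool of 6 mice, with no error bar. Points of the same gene lie close together above 1 FPKM and spread out below it, where Gabra3 ranges from 0.03 FPKM in WT 2 to 0.72 in WT 1.

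All 4 AMPA receptor genes, which encode the channels of fast glutamate transmission, were listed above 1 FPKM in every library. Gria4 (gene 14802, chr9:4417899-4796234 on NCBIM37) was at 14.2 FPKM in WT 1, 15.9 in WT 2, 17.7 in AdNTF3-Tg and 14.1 in TRKC+/-. Gria1 was at 13.2, 12.4, 14.8 and 12.6 FPKM in these libraries. Gria4 was the higher in every library, though the ranges overlapped. Gria2, whose edited subunit makes AMPA channels poorly permeable to calcium, was at 14.1, 13.1, 14.0 and 11.7 FPKM. Gria3 was lower, at 4.04, 4.43, 4.74 and 5.12 FPKM. By FPKM, Gria4 was thus the highest and Gria3 the lowest AMPA gene in every library, whereas Gria1 and Gria2 changed order between libraries and did not differ beyond their spread. The length used for Gria2 varied between 5271 and 5754 bases among libraries, and its reads were 639, 651, 701 and 576. That used for Gria4 varied between 4241 and 4699 bases. By reads, Gria4 (540, 595, 653 and 583) was below Gria1 (648, 627, 740 and 631) in every library.

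Kainate receptors were led by Grik5, which encodes the high-affinity subunit GluK5 that reaches the surface only with a GluK1, GluK2 or GluK3 partner. Grik5 (gene 14809, chr7:25794872-25857388) was at 29.0, 27.7, 28.3 and 28.3 FPKM in WT 1, WT 2, AdNTF3-Tg and TRKC+/-, which was between 69.7% and 71.4% of the summed level of its family. Grik5 also overlaps the zinc finger gene Zfp574 in the RefSeq table, and whether the counting used strand is not given in the sources used here. Of the partner subunits, Grik2 was at 4.02, 4.57, 4.78 and 4.32 FPKM and Grik3 at 4.31, 4.17, 4.59 and 4.39 FPKM. These ranges overlapped, and Grik5 was between 2.78 and 3.38 times as high as Grik1, Grik2 and Grik3 together. Grik4, the other high-affinity subunit, was at 3.01, 2.61, 1.89 and 3.14 FPKM, lowest in AdNTF3-Tg. Grik1 was the lowest of the family, with 8 reads in WT 1, 21 in WT 2, 26 in AdNTF3-Tg and 13 in TRKC+/-, and its log2 ratio of reads of WT 1 to WT 2 was −1.36, with a counting interval of −2.75 to −0.13. The interval of Grik1 left out 0, but it is that of a single gene and is not adjusted for the number of members.

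The delta receptor genes are relatives of the glutamate receptors that act mainly as synaptic adhesion partners. Grid1 was at 2.92, 2.87, 3.19 and 2.39 FPKM in WT 1, WT 2, AdNTF3-Tg and TRKC+/-. Grid2ip, the gene of the scaffold delphilin, was at 6.42, 7.44, 6.62 and 7.19 FPKM. The level of the scaffold gene was above that of Grid1 in every library.

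The NMDA receptor family had 1 subunit at a high level. Grin1 (gene 14810, chr2:25146701-25174707), which encodes the obligatory subunit GluN1, was at 33.4 FPKM in WT 1, 35.5 in WT 2, 37.2 in AdNTF3-Tg and 35.7 in TRKC+/-. It was the highest of the 43 members by mean, and above Glrb and Grik5 in every library. The genes of the glutamate-binding GluN2 subunits were far lower. Grin2c had 25, 16, 18 and 20 reads in WT 1, WT 2, AdNTF3-Tg and TRKC+/-, and Grin2d had 12, 6, 20 and 11. Grin2a had 1 read each in AdNTF3-Tg and TRKC+/-, and Grin2b was listed in no library. Together the Grin2 genes reached 0.91, 0.53, 0.98 and 0.78 FPKM, so Grin1 was between 36.7 and 67.0 times as high. Grin3a, a glycine-binding subunit, was at 0.67, 0.76, 0.69 and 0.59 FPKM, near the sum of the Grin2 genes, and Grin3b had between 3 and 7 reads. Grin1 took between 95.2% and 96.0% of the family level.

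Reads over Grin1 carry a limit of their own. Grin1os, on the opposite strand, had 101 reads in WT 1, 70 in WT 2, 107 in AdNTF3-Tg and 89 in TRKC+/-, or 4.09, 2.80, 4.29 and 3.52 FPKM. Grin1 was between 8.17 and 12.7 times as high as Grin1os per length. Without knowledge of strand, reads in the overlap of both genes cannot be told apart. Ppp3r2 overlaps Grin3a in the same table.

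Among the metabotropic glutamate receptors, which signal through G proteins, Grm7 (gene 108073, chr6:110595575-111517224) took between 88.8% and 92.5% of the family level. This group III receptor, known from presynaptic terminals, was at 7.19, 6.94, 6.53 and 6.75 FPKM in WT 1, WT 2, AdNTF3-Tg and TRKC+/-. Grm4, of the same group, followed with 15, 14, 20 and 11 reads. Group II receptors were at most at 2 reads, all from Grm3. Grm5, which couples to phospholipase C, had 2 reads in TRKC+/-, and Grm6 and Grm8 of group III had 1 read each in 1 library.

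GABA-A receptors are chloride channels, and their alpha subunits form the GABA binding site with the beta subunits. Gabra3 had 23 reads in WT 1, 1 in WT 2, 7 in AdNTF3-Tg and 13 in TRKC+/-. Gabra5 had 9, 4, 1 and 2 reads in the same order, and Gabra2 was not listed in WT 1 and had 1, 7 and 1 in the others. The log2 ratio of reads between WT 1 and WT 2 was 4.55 for Gabra3, with a counting interval of 1.93 to 9.92. The interval lay away from 0. Gabra3 was picked as the member that differed most between the WT pools, and the interval does not allow for that choice. The libraries in order of Gabra3 reads were WT 1, TRKC+/-, AdNTF3-Tg and WT 2. This is also the order of the summed skeletal muscle genes and of Acta1 (skeletal actin), with 262, 129, 97 and 14 reads. Ckm, Tnnt3 and Tnnc2 kept this order too. Myh4 and Tnni2 did not, with 120 and 29 reads in AdNTF3-Tg against 98 and 17 in TRKC+/-. The part of muscle in the Gabra3 reads was not tested.

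Several other GABA-A genes were near the floor. Gabrb2 had 8, 7, 2 and 2 reads in WT 1, WT 2, AdNTF3-Tg and TRKC+/-, and Gabre (epsilon) had 2, 5, 4 and 11. Gabrd, Gabrq, Gabrg1, Gabrg3 and the rho genes Gabrr1 and Gabrr2 had at most 5 reads in any library. GABA-A genes lie in clusters. No gene of the chr5 cluster (Gabrg1, Gabra2, Gabra4 and Gabrb1) had a mean above 0.11 FPKM. The X cluster (Gabre, Gabra3 and Gabrq) had means between 0.075 and 0.34 FPKM.

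Glycine receptor expression was nearly all that of the beta subunit. Glrb (gene 14658, chr3:80647521-80717582) was at 28.5 FPKM in WT 1, 33.7 in WT 2, 33.2 in AdNTF3-Tg and 31.5 in TRKC+/-. Glra2 and Glra4 had 1 read each, both in the library labelled TRKC+/-, and Glra1 and Glra3 were listed in no library. Glrb thus took between 99.6% and 100% of the family level. The product of Glrb binds gephyrin, the scaffold of inhibitory synapses, whose gene Gphn was at 10.3, 10.9, 12.2 and 11.6 FPKM. Glrb was lowest in WT 1, and its log2 ratio of reads of WT 1 to WT 2 was −0.23, with a counting interval of −0.37 to −0.09.

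**Figure D2:**
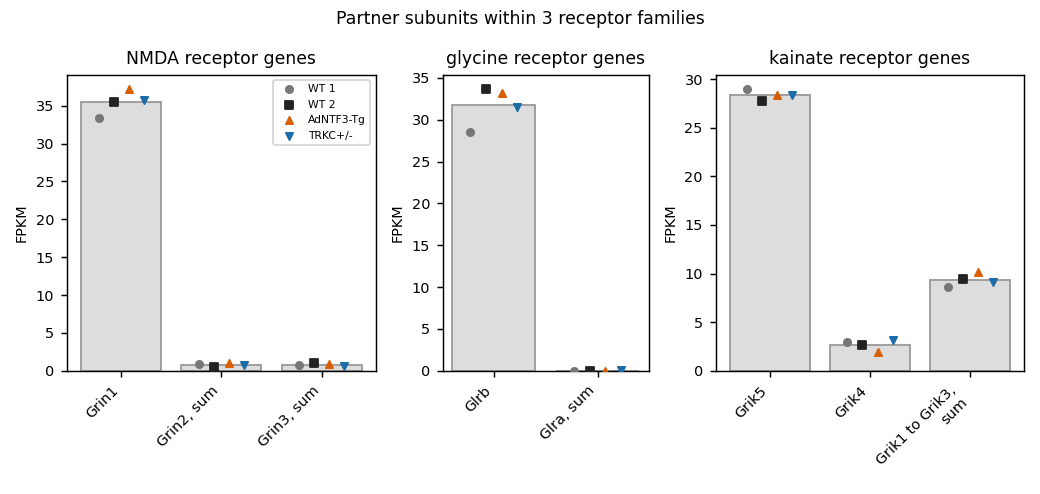
Summed FPKM of partner subunits in the NMDA, glycine and kainate families; bars give the mean of the 4 libraries, starting at 0, and each point is 1 library. Grin1 and Glrb stand at means of 35.5 and 31.7 FPKM beside partner bars (Grin2, Grin3 and Glra, each summed apart) of at most 1.01 FPKM in any library, and Grik5 stands above the sum of its partners in every library.

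The WT libraries give the only measure of spread between pools. Since they come from the cohorts of different mutants, a difference between cohorts and the spread between pools cannot be told apart in it. A log2 ratio of FPKM, each with 0.1 added, was counted as past the cutoff at 0.5 or more from 0, the cutoff of the study's methods. Between WT 1 and WT 2, 9 of the 28 members listed in all libraries were past it, against 13.4% of all 15275 such genes (7.71% higher and 5.67% lower in WT 1). Gabra3, Gabra5, Grin1os, Grin2c and Grin2d were higher in WT 1, and Gabre, Grik1 and Grin3b were among those higher in WT 2. Of the 17 members that averaged 1 FPKM or more, only Grin1os was past it, against 7.26% of 12751 genes. The median absolute log2 ratio of these 17 was 0.11, and 0.13 over all genes of that level. The higher receptor genes were thus about as close between the WT pools as other genes. For Grin1os, the counting interval of the log2 ratio of reads of WT 1 to WT 2 was 0.10 to 1.02. The other members past the cutoff averaged under 1 FPKM.

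The comparison of AdNTF3-Tg with WT addresses whether NT-3 made by adipocytes alters the ganglia that supply them. For a change to count, the ratio had to be past 0.5 in the same direction against both WT libraries. This was so for 3 of 28 members, of which 1 was higher and 2 lower, against a background of 5.7% of all genes (2.12% higher and 3.58% lower). All 3 had at most 20 reads in any library. Grin2d, with 12, 6 and 20 reads in WT 1, WT 2 and AdNTF3-Tg, had log2 ratios of FPKM of 0.58 and 1.28 to WT 1 and WT 2. Gabra5 had 9 and 4 reads in WT and 1 in AdNTF3-Tg, and Gabrb2 had 8 and 7 in WT and 2 in AdNTF3-Tg. These 2 genes have fewer than 10 reads in every library and are named only because they were called. The counting intervals of their log2 ratios of reads to the summed WT libraries were −8.12 to 0.03 for Gabra5 and −5.09 to 0.19 for Gabrb2, which include 0, and 0.15 to 2.15 for Grin2d. Against WT 1 alone 8 of 28 members were past the cutoff (13.9% of all genes), and against WT 2 alone 7 (13.3%). None of the 17 members that averaged 1 FPKM or more was past the cutoff, against 2.6% of such genes.

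Among these 17, AdNTF3-Tg lay above both WT libraries for 10 and below both for 2, against 34.5% and 34.8% of the 12751 genes of that level. The shifts were small, with a median absolute log2 ratio of 0.14 to WT 1 and 0.10 to WT 2, beside 0.15 and 0.13 over all genes of that level. Gria1 had 648 and 627 reads in WT and 740 in AdNTF3-Tg, a log2 ratio of reads of 0.21 with a counting interval of 0.07 to 0.34. Gria4 had 540 and 595 reads in WT and 653 in AdNTF3-Tg, a log2 ratio of 0.19 (0.05 to 0.33). The intervals of Grin1 (0.01 to 0.21), Grik1 (0.01 to 1.65) and Grin2d also lay above 0. Grik4 went the other way, with 90 and 79 reads in WT and 57 in AdNTF3-Tg, a log2 ratio of −0.58 (−1.04 to −0.14). Its log2 ratios of FPKM were −0.64 to WT 1 and −0.45 to WT 2, so it missed the cutoff against WT 2. In all, the counting interval left out 0 for 7 of 28 members, against 24.8% of all genes. It lay above 0 for 6 of the 28, against 12.0% of all genes, and below 0 for 1, against 12.7%. All 4 AMPA genes had a positive log2 ratio of reads to the summed WT libraries, of which those of Gria2 (−0.02 to 0.25) and Gria3 (−0.09 to 0.40) had intervals that included 0.

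edgeR's quasi-likelihood test, fitted on all 4 libraries, called none of the 24 members it tested in AdNTF3-Tg, and no gene of 13678 (0.0%). None of the 24 members, and 848 of all genes, had an unadjusted p under 0.05, and DESeq2 called 0 genes with 55 at that p. The lowest adjusted p of a member in edgeR's quasi-likelihood test (Benjamini-Hochberg) was 0.799, shared by Gria1, Grik4 and Grin2d. In that fit the log2 fold change of Gria1 was 0.21 (SE 0.11) and that of Grik4 −0.57 (SE 0.28). The fit has 1 residual degree of freedom, which is the difference between the WT pools, and assumes that the single mutant library varies as they do.

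**Figure D3:**
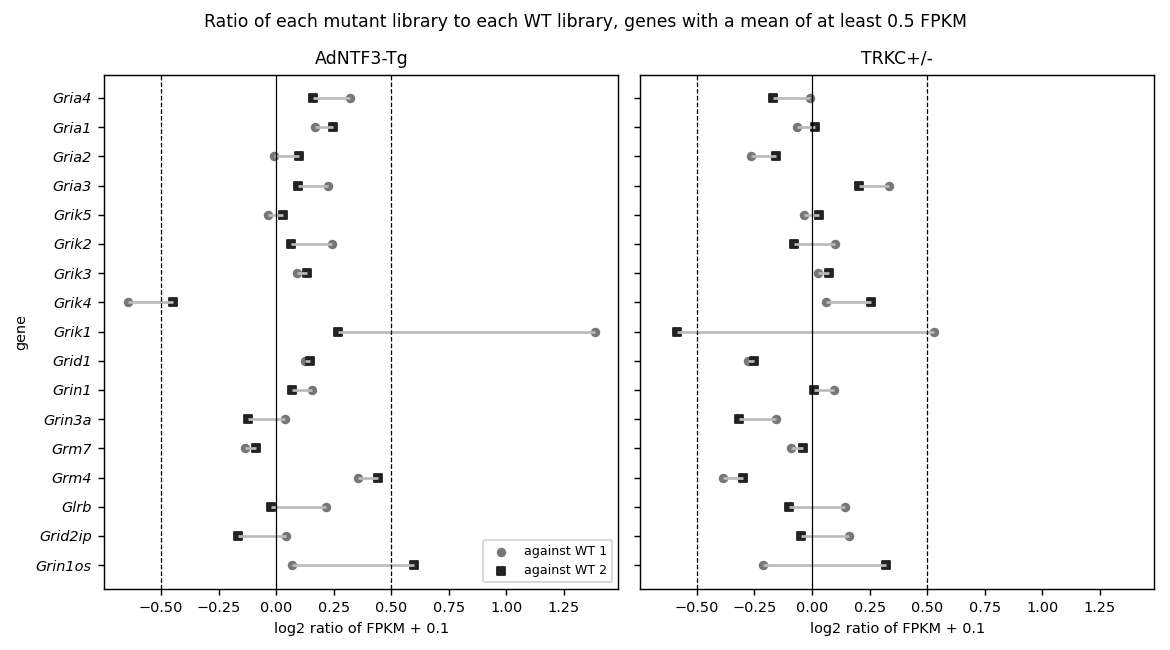
Log2 ratio of FPKM + 0.1 of each mutant library to WT 1 (circles) and WT 2 (squares) for 17 members that averaged 0.5 FPKM or more; a grey line joins both ratios of a gene and dashed lines mark the cutoff of 0.5 in either direction. No gene has both points beyond the same dashed line, and the longest line is that of Grik1, with 8 reads in WT 1 and 21 in WT 2.

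The comparison of the library labelled TRKC+/- with WT addresses how ganglia of mice with that genotype differ from WT, although Ntrk3 reads were not lower in it. The cutoff was passed against both WT libraries by 3 of 28 members, of which 1 was higher and 2 lower, against a background of 4.27% of all genes (1.78% higher and 2.49% lower). Gabre, which encodes the epsilon subunit, had 2 and 5 reads in WT and 11 in TRKC+/-, with log2 ratios of FPKM of 1.61 and 0.83 to WT 1 and WT 2. Gabra5 and Gabrb2 had 2 reads each in TRKC+/-, and their counting intervals were −4.91 to 0.42 and −5.10 to 0.18. Gabra5 and Gabrb2 were also past the cutoff downwards in AdNTF3-Tg, and both comparisons share the WT libraries. Against WT 1 alone 6 of 28 members were past the cutoff (10.7% of all genes), and against WT 2 alone 7 (12.7%). Of the 17 members at 1 FPKM or more, 0 passed the cutoff, against 1.64% of such genes.

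Among those 17, TRKC+/- lay above both WT libraries for 6 and below both for 5, against 32.6% and 30.5% of the 12751 genes of that level. The median absolute log2 ratio was 0.10 to WT 1 and 0.16 to WT 2, beside 0.11 and 0.13 over all genes of that level. Of the AMPA genes, Gria3 had 181 and 202 reads in WT and 235 in TRKC+/-, a log2 ratio of reads of 0.27 with a counting interval of 0.03 to 0.51, and Gria2 had 639 and 651 in WT and 576 in TRKC+/-, a log2 ratio of −0.19 (−0.33 to −0.04). Gria3, Gria2 and Gabre were among the 5 of 28 members whose interval left out 0, against 16.2% of all genes. It lay above 0 for 3 of the 28, against 8.28% of all genes, and below 0 for 2, against 7.95%.

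edgeR's quasi-likelihood test called none of the 24 members in TRKC+/-, against 2 of 13678 genes (0.0146%). No member had an unadjusted p under 0.05, beside 289 of all genes, and DESeq2 called no member and 2 genes, with 20 at that p. Every member had an adjusted p of 0.999 in edgeR's quasi-likelihood test (Benjamini-Hochberg). In that fit the log2 fold change was 0.27 (SE 0.17) for Gria3 and −0.19 (SE 0.11) for Gria2. A missed threshold with 1 mutant library does not show that these genes were alike in WT and TRKC+/-.

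The genes that supply, clear and anchor these transmitters and receptors were taken from a list of 68, of which 65 were listed and 61 were listed in all 4 libraries. In AdNTF3-Tg, 2 were past the cutoff upwards (Gldc and Neto1) and 3 downwards (Slc17a6, Slc6a12 and Kctd16), against 5.7% of all genes in either direction. In TRKC+/-, 2 were past it upwards (Cacng8 and Kctd8) and 2 downwards (Slc17a6 and Slc6a12), against 4.27% of all genes. Slc6a12, which encodes a betaine and GABA transporter, had 39 and 35 reads in WT, 22 in AdNTF3-Tg and 21 in TRKC+/-. Kctd16, an auxiliary subunit of GABA-B receptors, was at 1.75 and 1.83 FPKM in WT and 1.14 in AdNTF3-Tg. Cacng8, an auxiliary subunit of AMPA receptors, was at 1.13 and 0.86 FPKM in WT, 0.61 in AdNTF3-Tg and 2.13 in TRKC+/-. The others named had means under 1 FPKM and were chosen only because they were called.

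Transmitter supply genes were unevenly listed. The vesicular transporters that load glutamate or GABA were at or near the floor: Slc17a6 had 9, 10, 2 and 1 reads in WT 1, WT 2, AdNTF3-Tg and TRKC+/-, Slc17a7 had 3, 8 and 2 in WT 1, AdNTF3-Tg and TRKC+/- and Slc17a8 1 and 3 in WT 1 and AdNTF3-Tg. Slc32a1, the vesicular GABA transporter gene, was listed in no library. Of the GABA-making enzymes, Gad2 was at 4.69, 4.10, 4.95 and 4.71 FPKM and Gad1 had 2 reads in each of 2 libraries. Glul (glutamine synthetase) led the synthesis list, between 84.3 and 97.0 FPKM. Slc6a9, a glycine transporter gene, and Slc1a1, a glutamate transporter gene, were the highest plasma membrane transporters, at 5.07 to 7.02 and 3.71 to 4.11 FPKM. No vesicular transporter gene of the list was above 0.31 FPKM in any library, so the receptor genes were listed beside few reads of the genes that load their transmitters.

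Receptor partners and scaffolds were well represented. Gabbr1, a subunit of the metabotropic GABA-B receptor, was at 105, 108, 114 and 108 FPKM in WT 1, WT 2, AdNTF3-Tg and TRKC+/-, and its partner Gabbr2 at 5.28, 4.45, 4.47 and 5.07 FPKM. Gabbr1 thus exceeded each of the 43 members in every library. Among auxiliary subunits, Cacng7 (29.4 to 33.4 FPKM) and Shisa9 (up to 10.4) were highest. Dlg4, which encodes the scaffold PSD-95, was between 47.1 and 53.8 FPKM, and its relative Dlg2 between 40.6 and 46.9. Of the inhibitory synapse list, Gabarapl1 (357 to 370 FPKM) and Gabarapl2 (241 to 259) were highest, and both also serve autophagy in all cells. The chloride importer gene Slc12a2 was at 11.1 to 12.6 FPKM and the exporter gene Slc12a5 at 0.62 to 0.72, so the importer was higher in every library. The ratio of these transporters bears on the direction of chloride flow through GABA-A receptors, which was not measured here.

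Of 51 marker genes of the neurons, glia, muscle, fat, vessels and macrophages, 49 were listed and 45 were listed in all 4 libraries. Of these 45, 1 was past the cutoff upwards in AdNTF3-Tg (Calca), against 5.7% of all genes in either direction, and 2 downwards in TRKC+/- (Scn10a and Ucp1), against 4.27%. Ucp1, the brown fat uncoupling protein, was at 47.3 and 48.1 FPKM in WT, 37.8 in AdNTF3-Tg and 7.80 in TRKC+/-. The other brown adipocyte genes were not past the cutoff: the log2 ratios of TRKC+/- to WT 1 and WT 2 were −0.34 and −0.10 for Cidea, −0.23 and −0.16 for Plin1 and −0.63 and 0.25 for Adipoq. Of the sensory neuron genes, Scn10a had 27 and 25 reads in WT, 39 in AdNTF3-Tg and 10 in TRKC+/-, and Calca had 35, 26, 52 and 23 in WT 1, WT 2, AdNTF3-Tg and TRKC+/-. The 7 sensory genes listed in all libraries had median log2 ratios of 0.44 and 0.45 in AdNTF3-Tg and −0.25 and −0.39 in TRKC+/- to WT 1 and WT 2. Not every gene followed these medians. In TRKC+/-, the ratios were 0.38 and 1.22 for Trpv1 and 0.07 and −0.39 for P2rx3. Avil, at a mean of 201 FPKM, had −0.04 and −0.04 in TRKC+/- and 0.05 and 0.05 in AdNTF3-Tg. Trpv1, Prdm12 and Pou4f1 had at most 10 reads in any library. The part of sensory neurons in the reads of the receptor genes was not tested. The summed levels of the other lists were 8827 to 9488 FPKM for sympathetic neurons, 422 to 574 for satellite glia, 537 to 569 for Schwann cells, 21.9 to 26.0 for endothelium and 24.9 to 29.0 for macrophages. Central neuron and glia markers summed to 12.1 to 14.6 FPKM, nearly all of it Gfap, and Aqp4 had 29, 23, 24 and 34 reads in WT 1, WT 2, AdNTF3-Tg and TRKC+/-. Of the others, Mnx1 and Olig2 were listed in no library, and Slc17a7, Neurod6 and Mog had at most 8 reads.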

How the data were processed

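Ganglia RNA was enriched with oligo(dT) and sequenced for the authors by a service provider as single-end reads of 50 bases, which were filtered with SOAPnuke (v1.5.2) and mapped with HISAT2 (v2.0.4). The methods name mm9, whereas the submitters' processing notes name mm10 and RSEM. The authors deposited for each gene and library an expected count, not normalized, an FPKM value scaled to length and depth, and the lengths used. Whether counting used strand is not given in the sources used here. Symbols came from a RefSeq table on GRCm38.p6, which matched 99.7% of identifiers and was otherwise used for overlaps between genes and for promoters. Positions are from GENCODE on NCBIM37.

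The members and lists were chosen with earlier results of these data known. Log2 ratios were taken of FPKM + 0.1, against each WT library, over genes listed in all 4. Counting intervals (exact Clopper-Pearson, 95%) compare reads with the summed WT libraries per library total. Neither these intervals nor the floor of 3 reads cover more than counting error, and PCR copies are not independent. Expected counts were rounded to whole numbers and tested with edgeR (4.0.16; quasi-likelihood, TMM, at least 40 reads in total, adjusted p under 0.05), with DESeq2 (1.42.0) as an alternative. The p-values of edgeR set each mutant against a spread known only from the difference between the WT pools, cohort included. That spread is moderated over all genes tested, with 7.95 prior degrees of freedom beside 1 residual. Named with values were members averaging 0.5 FPKM or more, the highest of each family, members called with at least 10 reads in 1 library, and of each pathway sublist the 2 highest genes and those called that average 1 FPKM or more. Other members and genes with values in the text were added after their values were seen. Calculations were tested on simulated data. Values of some members and list genes are not reported here.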

Additional observations from a re-analysis of the deposited data

How the results depend on the processing

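With 1 mutant library per comparison and few reads on most members, counts of genes past the cutoff depended on low levels. In AdNTF3-Tg, 3 members and 871 genes were past it. These became 0 and 165 with 1 FPKM added, 0 and 332 with a mean of at least 1 FPKM required, 5 and 1552 with unlisted values taken as 0, 0 and 177 with a cutoff of 1, and 7 and 1674 against the mean of the WT libraries. Without WT replicate 1 or 2 they were 7 to 8 members and 2033 to 2116 genes. In TRKC+/-, 3 members and 653 genes became 0 and 105, 0 and 209, 6 and 1315, and 0 and 133 under the first 4 of these settings, and the mean of the WT libraries gave 1308 genes. Leaving out WT replicate 1 or 2 gave 6 to 7 members and 1632 to 1933 genes. By construction, these settings test other genes, shrink the ratios of low genes, raise the cutoff or ask for a single control. Adding 0.01 FPKM or scaling reads by TMM left the members at 3 in both comparisons. In edgeR's quasi-likelihood test, calls over all genes went from 0 to 5 in AdNTF3-Tg and from 2 to 4 in TRKC+/- with DESeq2's size factors, and from 2 to 0 in TRKC+/- with no filter on reads; the cause was not tested. No member was called in any of these fits or by DESeq2. Of 322 further values, all ratios of single genes, 302 moved by less than the WT spread, 20 by more, and 0 changed direction among called values. Without either WT library edgeR has no residual degree of freedom, so no such fit was made. No paired analysis was possible because each mutant has a single library and shares fewer than 2 replicate numbers with WT. Depth limits the low members, whose counting intervals are wide.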
